A study of Mus musculus with 24 samples.

Results

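Very short introns, taken as annotated introns of at most 150 bases, were followed through the differentiation of mouse embryonic stem cells (ESCs) into neurons. The deposited splicing table listed 160806 introns, of which 17165 were at most 150 bases long. Of these, 8855 (51.6%) carried a read-coverage class of at least "low" in all 24 samples and formed the set described here. They lay in 3212 host genes. For comparison, 60747 longer introns passed the same coverage rule.

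The cells came from the E14 mouse ESC line and were either wild type (WT) or carried on both alleles a Polr2a codon that replaces an arginine with a histidine (slow/slow). Polr2a encodes the largest subunit of RNA polymerase II, and the replacement is known to slow elongation. Poly(A)+ RNA was sequenced from 3 samples of each genotype at 4 stages, namely ESCs kept in 2i medium, neural precursor cells (NPCs) at day 7, bead-purified PSA-NCAM+ cells at day 10 and neurons kept for 14 days after replating at day 7. The slow/slow cells were plated at 3 times the density of WT cells at the start of differentiation, so genotype and density cannot be told apart in the 3 derived stages. The slow/slow line was made by 2 successive rounds of gene targeting, each of which left a recombination scar of the excised selection cassette in an intron of Polr2a. The sources used here name no other slow/slow line, so genotype cannot be told apart from other differences between the targeted and the parental cells. The tests below measure the spread between samples of these lines.

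An intron is removed from a nascent transcript by the spliceosome, which pairs a 5′ splice site with a branch site and a 3′ splice site. In a very short intron these signals lie close together, and the intron is commonly recognised across itself rather than across the neighbouring exons. An unspliced intron can keep a transcript in the nucleus or add a premature stop codon, and genes of RNA-binding proteins are known to use such retention to limit their own expression. Retention is given here as percent intron retention (PIR), the share of reads from transcripts that still hold the intron among all reads that inform on its splicing.

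The markers of each stage were checked first. The summed level of 5 ESC genes lay at 5013 to 5734 CPM (gene counts scaled to library size) in the ESCs and at 75.5 to 127 CPM in the neurons, and 4 neuron genes summed to 1221 to 1430 CPM in the neurons. Of these 4, Tubb3 was at 889 to 980 CPM in WT and 1081 to 1251 CPM in slow/slow neurons. The others were lower in slow/slow neurons, Syn1 with 212 to 236 against 59.0 to 62.3 CPM and Snap25 with 194 to 228 against 58.4 to 61.9 CPM. Rbfox3 had 34.4 to 40.1 against 18.9 to 21.2 CPM. The 3 NPC genes with counts summed to 37.1 to 38.6 CPM in WT NPCs and 124 to 165 CPM in slow/slow NPCs, below the 873 to 1135 CPM of the neurons. The 4 genes listed for PSA-NCAM+ cells summed to at most 32.7 CPM in WT PSA-NCAM+ cells and 92.3 CPM in slow/slow ones, against 16.7 to 27.9 CPM in the ESCs and 1330 to 1884 CPM in the neurons. The PSA-NCAM+ libraries therefore carried little of the RNA expected from their label. Replicate 1 of both PSA-NCAM+ groups stood apart. It had 486 and 630 CPM of 3 mesenchymal genes, against 100 to 231 CPM in the other 4 PSA-NCAM+ samples. The median PIR, the main counts of retention calls and the named introns of this stage other than that of Polr2a are also given without replicate 1. The other results that use these samples, such as host expression and the length classes, include it.

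Sequences were available for those introns that GENCODE M21 transcripts of build GRCm38 include as exonic sequence. Of the 8855 introns, 7560 (85.4%) could be matched to 1 annotated GRCm38 intron, 7512 of them within a coding region, and 1362 had a sequence. Of the 1362, 1352 (99.3%) began with GT and ended with AG, 9 began with GC and ended with AG, and 1 had other ends. The sequences below are written 5′ to 3′ on the strand of the gene, with the first 2 and the last 2 bases in capitals. They show the 3 shortest introns with a sequence in a coding region, the intron with the highest retention, and introns whose retention differed between genotypes or stages. On GRCm38 they lie at chr8:71348902-71348934 (Myo9b, + strand, 33 bases), chr15:76594611-76594673 (Adck5, + strand, 63 bases), chr2:26399349-26399412 (Inpp5e, − strand, 64 bases), chr10:81364668-81364741 (4930404N11Rik, − strand, 74 bases), chr8:105936755-105936865 (Psmb10, − strand, 111 bases), chr7:19395168-19395238 (Klc3, − strand, 71 bases), chr17:33666530-33666646 (Hnrnpm, − strand, 117 bases), chr3:36565297-36565428 (Exosc9, + strand, 132 bases), chr17:25831219-25831308 (Stub1, − strand, 90 bases) and chr11:94293033-94293137 (Luc7l3, − strand, 105 bases).
Myo9b: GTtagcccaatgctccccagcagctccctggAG
Adck5: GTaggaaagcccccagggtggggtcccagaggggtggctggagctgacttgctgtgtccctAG
Inpp5e: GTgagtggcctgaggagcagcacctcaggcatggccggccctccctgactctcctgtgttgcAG
4930404N11Rik: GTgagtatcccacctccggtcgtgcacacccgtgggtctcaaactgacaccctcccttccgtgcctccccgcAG
Psmb10: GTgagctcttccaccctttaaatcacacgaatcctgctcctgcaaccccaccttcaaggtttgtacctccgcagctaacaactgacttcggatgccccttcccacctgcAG
Klc3: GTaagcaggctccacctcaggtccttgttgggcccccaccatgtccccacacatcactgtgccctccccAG
Hnrnpm: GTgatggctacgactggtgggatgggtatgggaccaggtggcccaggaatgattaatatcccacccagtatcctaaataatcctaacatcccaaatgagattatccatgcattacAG
Exosc9: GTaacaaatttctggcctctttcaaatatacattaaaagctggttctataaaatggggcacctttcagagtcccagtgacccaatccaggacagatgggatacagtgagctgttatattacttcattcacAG
Stub1: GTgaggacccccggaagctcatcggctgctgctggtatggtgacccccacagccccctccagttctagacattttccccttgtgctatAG
Luc7l3: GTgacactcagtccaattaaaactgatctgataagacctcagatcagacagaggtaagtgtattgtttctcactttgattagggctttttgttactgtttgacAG

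Read in the frame of the upstream exon, the introns of Adck5, 4930404N11Rik, Exosc9, Stub1 and Luc7l3 held a stop codon. Those of Myo9b, Inpp5e, Psmb10, Klc3 and Hnrnpm did not, and of these 5 the introns of Myo9b, Psmb10 and Hnrnpm had a length divisible by 3. Among 1341 introns with a sequence and a known frame, 960 (71.6%) held an in-frame stop and 109 had neither a stop nor a length that shifted the frame. The 109 had a median PIR of 3.06%, against 2.79% for those with a stop. The GC content of the sequenced introns was 56.2% at the median, and it was 52.1% for introns with a mean PIR under 1% and 57.7% for those at 20% or more. The sequenced introns are no random draw, because their annotation as exonic goes with retention. Their median PIR was 2.84%, against 0.62% for the introns without a sequence.

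Most very short introns were spliced almost completely. The median over the 8855 introns of the mean PIR in 24 samples was 0.78%, the upper quartile was 2.42% and the 95th percentile was 9.71%. The longer introns lay lower, with a median of 0.433%, an upper quartile of 1.36% and a 95th percentile of 6.33%. A mean PIR above 10% was found for 423 very short introns (4.78%) and for 1554 longer introns (2.56%). Among the longer introns of up to 300 bases this share was 5.48%. At the upper end, 23 very short introns had a mean PIR of 50% to 90% and 9 were above 90%. A total of 145 introns (1.64%) were above 10% in all 24 samples, and 63 (0.711%) had no retention read in any. An informative value rested on 196 reads at the median, so that a value of 0 at this depth allows a PIR of up to 1.53%, and at the fewest reads, 15, of up to 20%.

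The 5 introns of more than 60 bases with the highest retention were close to fully unspliced in every sample. The 74-base intron of 4930404N11Rik had a mean PIR of 99.9%, and its lowest value in 24 samples was 99.1%. The 126-base intron of Serinc4, a gene of the serine incorporator family, had a mean of 99.5% with a lowest value of 98.3%. The 78-base and 96-base introns of 9930021D14Rik had means of 99.6% and 99.02%, with lowest values of 97.4% and 97.2%. The 94-base intron of Aplf, which encodes a DNA repair factor, had a mean of 96.7% and ranged from 90.2% to 100%. Exons of other genes lay over some of these introns on the opposite strand, namely exons of Mfsd12 over the intron of 4930404N11Rik and of Serf2 over that of Serinc4. Serinc4 itself was at most at 0.377 CPM in a group mean, whereas Serf2 was at 182 to 320 CPM. Whether the splicing values used the strand of the reads is not given in the sources used here, and reads of the overlapping gene cannot be told apart from those of the intron.

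Such overlaps were more frequent at high retention. An exon of another gene lay over 228 (3.02%) of the 7560 introns with a GRCm38 match. The median PIR was 2.91% for these 228 and 0.707% for the others. Among matched introns with a mean PIR over 50%, 7 of 19 (36.8%) were overlapped, and among those over 10%, 45 of 325 (13.8%) were. Overlaps were looked for only in introns with a GRCm38 match, so for an unmatched intron a missing mention does not mean that there is none. Where an overlap was found it is given with the intron below, and its part in the differences was not tested.

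Sample by sample, the median PIR of the very short introns was 0.61% to 0.85% in WT ESCs and 0.55% to 0.68% in slow/slow ESCs. It was 0.57% to 0.63% in WT NPCs and 0.64% to 0.72% in slow/slow NPCs, without overlap between the genotypes. The neurons had the lowest group means, with samples at 0.36% to 0.49% in WT and 0.40% to 0.60% in slow/slow. In the PSA-NCAM+ cells replicate 1 had 1.58% (WT) and 1.39% (slow/slow), and the other 4 samples had 0.54% to 0.70%. Averaged over the 3 samples of a group, the medians in WT were 0.733% ± 0.120 (ESCs), 0.607% ± 0.0321 (NPCs), 0.980% ± 0.520 (PSA-NCAM+ cells) and 0.420% ± 0.0656 (neurons) (SD, n = 3). The slow/slow medians were 0.613% ± 0.0651, 0.673% ± 0.0416, 0.877% ± 0.452 and 0.503% ± 0.100 in the same order (SD, n = 3). Without replicate 1 the PSA-NCAM+ means were 0.680% and 0.620%. The share of introns above 10% was 10.2% and 9.87% in the 2 replicate 1 samples and lay between 3.79% and 6.04% in the other 22.

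**Figure D1:**
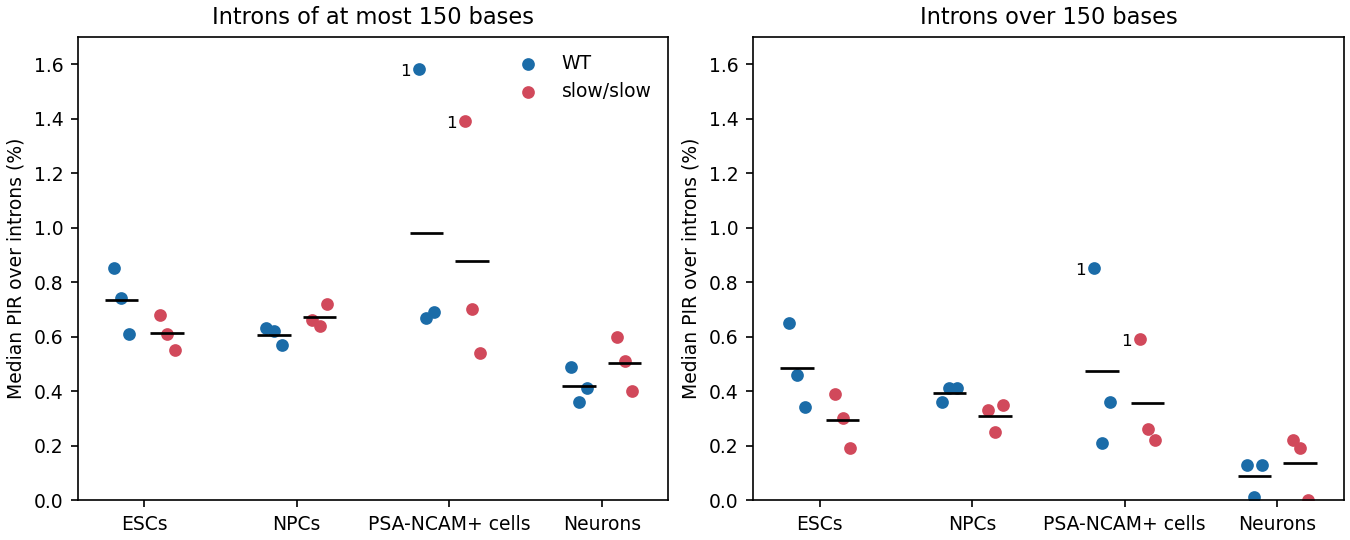
Median percent intron retention (PIR, %) over introns in each of the 24 samples (points) by stage and genotype, with the mean of 3 samples (line), for 8855 introns of at most 150 bases (left) and 60747 longer introns (right). Replicate 1 of both PSA-NCAM+ groups, marked 1, lies above all other samples, except that 1 WT ESC sample at 0.65% exceeds the slow/slow one at 0.59% among longer introns, and the neurons have the lowest group means among very short introns.

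Retention varied with length mainly at the lower end. The 1304 introns of 61 to 80 bases had a median PIR of 1.76%, and 7.67% of them were above 10%. The 2217 introns of 81 to 90 bases had a median of 0.795%, and the next classes, up to 100, up to 120 and up to 150 bases, had medians of 0.584%, 0.589% and 0.684%. In these 4 classes 4.06% to 4.44% of introns were above 10%. Beyond the limit the median was 0.776% up to 300 bases, 0.505% from there to 1000 bases, 0.398% to 10000 bases and 0.239% above. The shares above 10% in these classes were 5.48%, 3.28%, 1.84% and 0.971% in the same order. The class of 61 to 80 bases was above each of these longer classes in every group, with medians in WT of 1.74% (ESCs), 1.40% (NPCs), 2.27% (PSA-NCAM+ cells) and 1.10% (neurons) and in slow/slow of 1.748%, 1.67%, 2.07% and 1.298% in this order. Across the 8855 introns Spearman's rank correlation of length and mean PIR was −0.154, and it ranged from −0.162 to −0.113 over single samples. The introns share libraries and differ in read number, which itself had a rank correlation of −0.183 with PIR, so these values are a description. The study's filter for balanced reads at both ends of the intron was passed in all samples by 92.2% of the introns and by 83.4% of those of 61 to 80 bases. At the limit itself, 37 introns of 150 bases had a median of 0.641% and 52 introns that were 1 base longer had 0.717%.

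**Figure D2:**
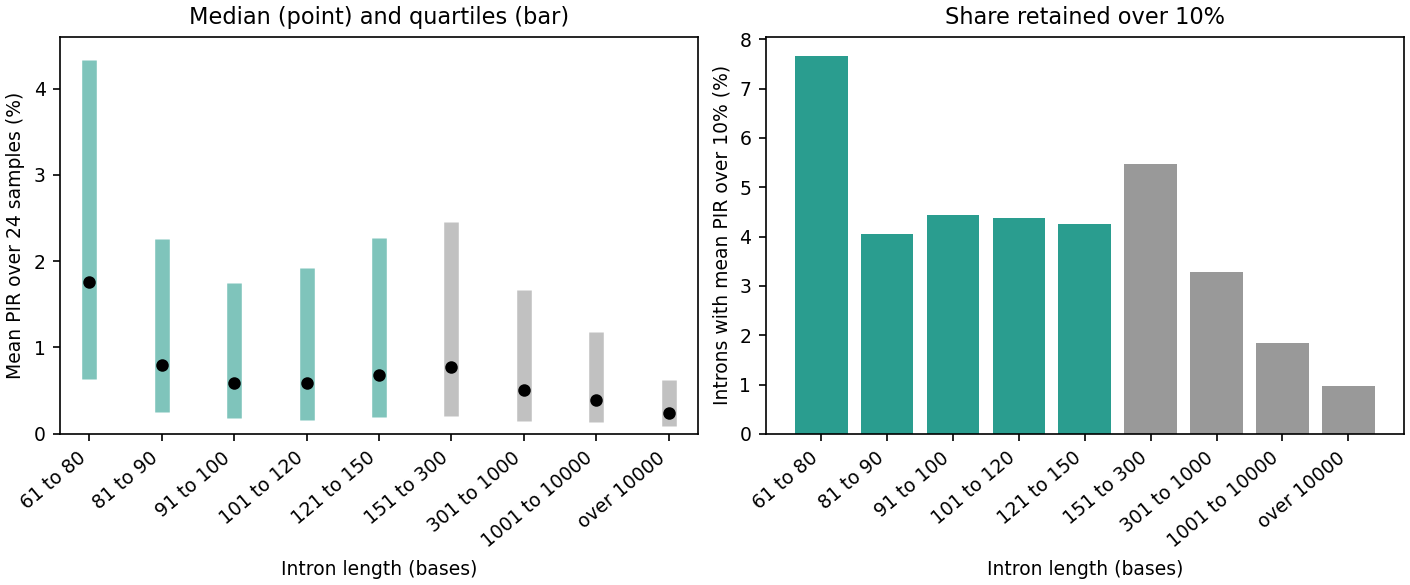
Percent intron retention (PIR, mean over 24 samples, %) by intron length class in bases, as the median (point) and quartiles (bar) on the left and as the share of introns with a mean PIR over 10% on the right. Green marks introns of at most 150 bases and grey longer ones, the class up to 60 bases with 3 introns is not drawn, and of those drawn the class of 61 to 80 bases has the highest median, 1.76%, and the highest share over 10%, 7.67%.

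Only 3 introns were at most 60 bases long. The shortest, the 33-base intron of Myo9b, an unconventional myosin, had a PIR of 1.06% to 6.04% over the 24 samples and a mean of 3.37%. The 56-base intron of Hnrnph1, which encodes an hnRNP that regulates splicing, had group means of 3.00% to 4.98% from ESCs to PSA-NCAM+ cells and of 0.527% and 0.963% in WT and slow/slow neurons. The 57-base intron of Gcdh, the mitochondrial glutaryl-CoA dehydrogenase, lies in the 5′ untranslated region and was retained far more, at 14.9% to 45.8%. Next in length were the 63-base intron of Adck5 with a mean of 18.9% (8.72% to 33.7%) and the 64-base intron of Inpp5e, a phosphoinositide phosphatase of the primary cilium, with a mean of 16.6% (9.38% to 34.8%). Retention thus differed by about an order of magnitude among the 5 shortest introns. Introns with a length divisible by 3 had a median PIR of 0.754% (n = 2843), and those leaving 1 or 2 bases had 0.784% (n = 3036) and 0.808% (n = 2976).

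In most host genes with introns of both kinds the very short introns had the lower mean retention. In 3116 genes with both very short and longer introns, the mean PIR of the short introns exceeded that of the longer ones in 970 (31.1%). The median difference was −0.330 percentage points, and it was below 0 in 24 of 24 samples. The gene means had medians of 0.773% for short and 1.32% for longer introns, although the median over all longer introns was 0.433%. A mean over more introns is more likely to include a highly retained one, and numbers of introns were not matched. The comparison therefore cannot decide whether a short intron is retained less than a longer one of its gene. Of the 3212 host genes, 1522 (47.4%) held 1 very short intron and 528 held at least 5. A very short intron with a mean PIR above 10% was found in 309 hosts. Of the 528 hosts with at least 5, 124 had such an intron, but 0 had all of their very short introns above 10%.

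Most host lists had medians below that of all very short introns, and those of mitochondrial ribosomal proteins, RNA polymerase subunits and tubulin-related genes lay above it. In the lists of the splicing machinery, the proteasome and the cytoplasmic ribosome, single introns lay far above the median of their list. The lists were examined with earlier results of these data known. Core spliceosome genes held 69 very short introns with a median PIR of 0.268%, and SR proteins and hnRNPs held 29 with 0.248%. Above these stood the 144-base intron of Prpf40b, a factor associated with the U1 snRNP, at 28.6% and the 117-base intron of Hnrnpm at 47.6%. Proteasome genes held 57 with a median of 0.316%, with Psmb10, a catalytic subunit of the immunoproteasome, highest at 34.7%. Genes of aminoacyl-tRNA synthetases held 102 with 0.666%, with the mitochondrial threonyl-tRNA synthetase Tars2 highest at 23.8%, and chromatin-modifying enzymes held 119 with 0.754%, with the lysine methyltransferase Setd6 highest at 14.4%. Mitochondrial ribosomal protein genes held 33 with a median of 1.27% and a maximum of 8.40% in Mrpl52, and respiratory chain genes held 31 with 0.618% and a maximum of 11.98% in Cox6b2. RNA polymerase subunits held 44 with 0.91%, with the RNA polymerase III subunit Polr3c highest at 14.9%. Tubulin-related genes held 13 with 1.28%, highest in the γ-tubulin complex component Tubgcp6 at 4.59%. Collagens held 4 with 0.0975%, and the highest was in Col18a1 at 0.274%. Cytoplasmic ribosomal protein genes held 11 with 0.117%. The highest of these, Rpl10 at 69.2%, is uncertain, because near-identical gene copies may share its reads, which was not tested. None of the 13 synaptic genes listed held a very short intron with coverage in all samples. Retention in Clk1 and Clk4, kinases of SR proteins with known retained introns, was 0.813% and 6.20% for the 2 introns of Clk1 and 2.12% and 3.5% for those of Clk4, and the 4 introns of the O-GlcNAc transferase gene Ogt had at most 0.600%.

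The comparison of slow/slow with WT cells asks whether slower elongation goes with another extent of splicing of these introns. The targeted gene was examined first, because Polr2a itself holds 12 very short introns. Its 117-base intron (mm9 chr11:69557188-69557304, − strand), which contained the site of the selection cassette, had PIR values of 0.54%, 0.51% and 0.26% in WT ESCs and of 19.7%, 19.2% and 19.7% in slow/slow ESCs. In WT NPCs it had 1.3%, 0.29% and 0.67% against 19.5%, 19.2% and 15.4% in slow/slow NPCs, and in WT PSA-NCAM+ cells 2.68%, 0.17% and 0.00% against 33.7%, 16.4% and 18.2%. In neurons the values were 0.30%, 0.14% and 0.09% in WT and 20.9%, 21.6% and 18.1% in slow/slow. The lowest of the 12 slow/slow samples was above the highest of the 12 WT samples, so the libraries match their genotype labels. The 0.00% allows a PIR of up to 0.779%. On the log2 odds scale the difference was 5.50 ± 0.56 at the ESC stage (SE, limma, Benjamini-Hochberg adjusted p = 7.2e-05) and 4.56 ± 0.59 at the NPC stage (adjusted p = 0.00038). Among PSA-NCAM+ cells it was 3.92 ± 0.57 (limma adjusted p = 0.004) and among neurons 6.44 ± 0.83 (limma adjusted p = 0.00034).

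The reads behind the slow/slow values of this intron lay at 1 of its ends. In slow/slow samples the upstream exon–intron junction held 43 to 242 reads (median 134), the downstream junction 0 to 11 (median 2.5) and the spliced junction 97 to 647. In WT samples they held 0 to 10, 0 to 6 and 228 to 742. The balance test of the reads at both ends failed in 12 of 12 slow/slow and 0 of 12 WT samples, so the study's own filter sets this intron aside, and its PIR is not a measure of a whole retained intron. The main limma counts below of introns higher in slow/slow include it at every stage. The counts by the study's rule with its filter do not. The scar left by the cassette and the polymerase substitution are carried by the same 12 samples and cannot be told apart. The 79-base intron upstream of it had 2.24% to 3.71% in slow/slow against 0.15% to 0.30% in WT ESCs, and it did not pass the test at any stage (limma adjusted p = 0.081 to 0.31). Polr2a expression in ESCs was 717 CPM with the WT and 707 CPM with the slow polymerase, and it differed in neurons, with 323 against 168 CPM (log2 fold change −0.94 ± 0.16, edgeR adjusted p = 7.8e-05).

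**Figure D3:**
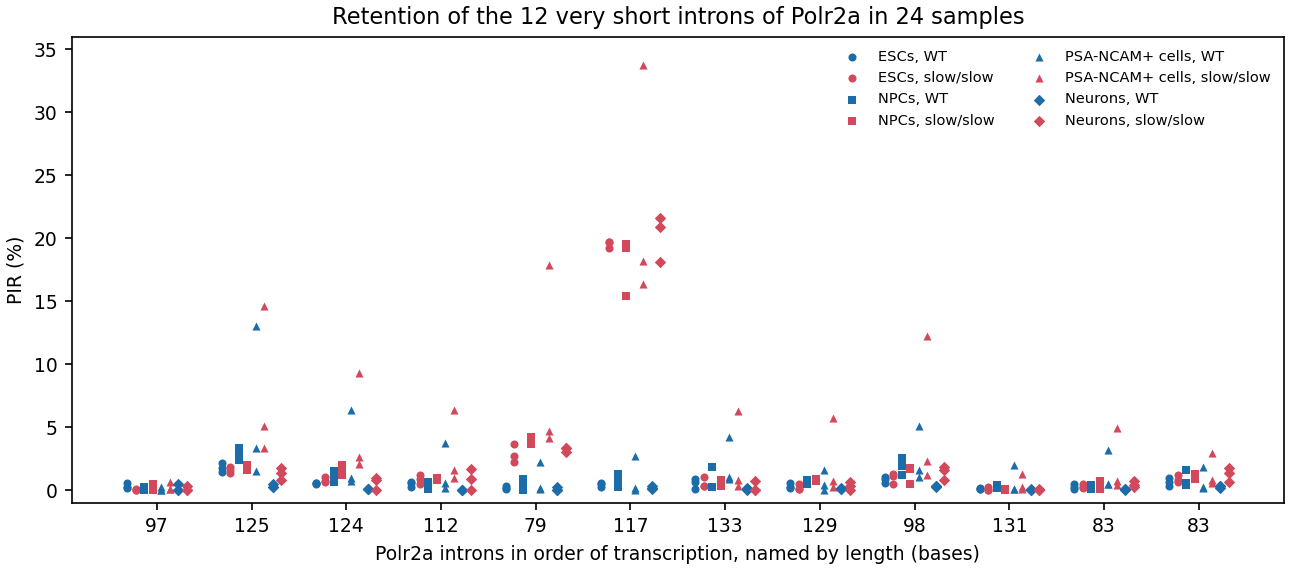
Percent intron retention (PIR, %) of the 12 very short introns of Polr2a in 24 samples, with introns in order of transcription and named by their length in bases. Blue points are WT and red points slow/slow, with a symbol for each stage, and the 117-base intron lies at 15.4% to 33.7% in all slow/slow samples and at most at 2.68% in WT.

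In ESCs few very short introns differed. By limma, 5 of 8855 passed a false discovery rate of 0.05, 2 higher and 3 lower in slow/slow, which is 0.0565% against 0.046% of all 69602 introns (0.033% of them higher and 0.0129% lower). Beside Polr2a the largest higher value was the 89-base intron of Mrpl38, a mitochondrial ribosomal protein, with 1.95%, 1.32% and 1.96% in WT and 5.06%, 7.51% and 6.04% in slow/slow ESCs (log2 odds difference 1.80 ± 0.32, SE, limma adjusted p = 0.033). The groups did not overlap. The 99-base intron of Ddx49, a DEAD-box RNA helicase, was lower in slow/slow ESCs, with 29.5%, 26.02% and 23.6% in WT and 10.9%, 8.89% and 12.4% in slow/slow (−1.58 ± 0.26, limma adjusted p = 0.021). An exon of Homer3 lies over this intron on the opposite strand, and Homer3 was lower in slow/slow ESCs as well (log2 fold change −0.83, edgeR adjusted p = 5.9e-07), while Ddx49 expression was higher (0.54, edgeR adjusted p = 8.2e-05). By the study's rule, a difference of over 10 points with a posterior probability above 0.95, 3 of 8513 introns passed, 2 higher and 1 lower, against 0.0299% of all introns that it could test (0.0236% higher and 0.0063% lower). Leaving out 1 library gave 1 to 4 calls, with 1 without WT replicate 1, 2 without WT replicate 2 or slow/slow replicate 1 or 2, and 3 without slow/slow replicate 3. Mrpl38 lost its call without any 1 of the 6 libraries and Ddx49 in 4 of the 6 refits, with limma adjusted p over all alternatives of up to 0.336 and 0.202. The rule's 3 calls became 8 without WT replicate 3 and 6 without slow/slow replicate 1 or 3.

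In NPCs the differences were more numerous and lay almost all in 1 direction. Retention of 107 very short introns was higher and of 6 lower in slow/slow NPCs, in 103 host genes. The 113 are 1.28% of the very short introns, against 0.904% of all introns. The split by direction differed more, with 1.21% of very short introns higher against 0.57% of all introns, and 0.0678% lower against 0.333%. Stage markers moved with genotype in these samples. Beside the NPC genes, neuron genes summed to 27.4 to 28.1 CPM in WT and at least 104 CPM in slow/slow NPCs, and ESC genes to 1887 to 1961 CPM and 1114 to 1232 CPM, and their part in the retention differences was not tested. Of the 113, 34 differed by more than 10 percentage points, all 34 of them higher in slow/slow, and over all introns 105 (0.151%) were higher and 73 (0.105%) lower by this limit. The study's rule called 40 higher and 6 lower of 8520, or 0.54% against 0.247% of all introns that it could test (0.154% higher and 0.0929% lower).

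Among these, the 111-base intron of Psmb10 had PIR values of 15.7%, 16.7% and 13.3% in WT and 42.7%, 49.2% and 48.2% in slow/slow NPCs. The slow/slow values were above all WT values (log2 odds difference 2.26 ± 0.41, SE, limma adjusted p = 0.0068). The 89-base intron of Suds3, a component of the Sin3 histone deacetylase complex, had 65.6%, 56.2% and 61.1% in WT and 86.6%, 93.02% and 90.1% in slow/slow (2.47 ± 0.34, limma adjusted p = 0.00065). Klhl17, a kelch-like actin-binding protein of neurons, had in its 110-base intron 11.1%, 5.45% and 11.4% in WT and 32.8%, 36.5% and 33.3% in slow/slow (2.20 ± 0.31, limma adjusted p = 0.00072). The 71-base intron of Klc3, a kinesin light chain, had 33.5%, 39.95% and 41.8% against 60.7%, 67.8% and 67.5% (1.55 ± 0.35, limma adjusted p = 0.032), and an exon of Ercc2 lies over it on the opposite strand. Ercc2 expression was higher in slow/slow NPCs as well (log2 fold change 0.24, edgeR adjusted p = 0.0098), and its part in the retention values was not tested. Hnrnpm, itself a splicing regulator, had in its 117-base intron 39.0%, 38.4% and 35.8% against 51.1%, 51.6% and 55.6% (0.88 ± 0.20, limma adjusted p = 0.039). None of these 5 groups of samples overlapped with its counterpart. Expression of the hosts went in different directions, with Klc3 lower in slow/slow NPCs (log2 fold change −1.18, edgeR adjusted p = 0.0015), Hnrnpm higher (1.13, adjusted p = 4.8e-05) and Klhl17 higher (0.43, adjusted p = 0.00063). Psmb10 and Suds3 did not pass the test (0.45 and 0.09, edgeR adjusted p = 0.057 and 0.41).

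Of the 4 named introns that were lower in slow/slow NPCs, 1 was retained above 10%. The 140-base intron of Ddx49 had 30.8%, 31.4% and 27.4% in WT and 21.7%, 19.3% and 20.4% in slow/slow (log2 odds difference −0.72 ± 0.17, SE, limma adjusted p = 0.042), and here Homer3 was slightly higher in slow/slow (0.23, edgeR adjusted p = 0.033). The other 3 named introns had lower means. The 84-base intron of Abcf1, an ABC protein that acts in translation initiation, had 5.17% ± 0.670 in WT and 1.65% ± 0.202 in slow/slow (SD, n = 3, limma adjusted p = 0.0063). The 100-base intron of Wdr6 had 2.33% ± 0.289 and 0.557% ± 0.107 (SD, n = 3, limma adjusted p = 0.024), and the 139-base intron of Flywch1 had 1.17% ± 0.332 and 0.0467% ± 0.0808 (SD, n = 3, limma adjusted p = 0.0073). Expression of Wdr6 and Flywch1 was higher in slow/slow NPCs (log2 fold change 1.10 and 1.09, edgeR adjusted p = 3.7e-06 and 1.1e-05). The number of calls depended on each library, and the 113 became 62, 44 and 31 without WT replicate 1, 2 and 3 and 60, 58 and 55 without slow/slow replicate 1, 2 and 3. In all of these refits 24 introns were called. The intron of Hnrnpm was not among those followed by name in the refits. Klc3 and the Ddx49 intron lost their calls in each of the 6 (limma adjusted p over all alternatives up to 0.125 and 0.209), Wdr6 in 5, Psmb10 without WT replicate 3 (adjusted p = 0.0546) and Abcf1 and Flywch1 without slow/slow replicate 1, whereas Suds3 and Klhl17 kept theirs.

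**Figure D4:**
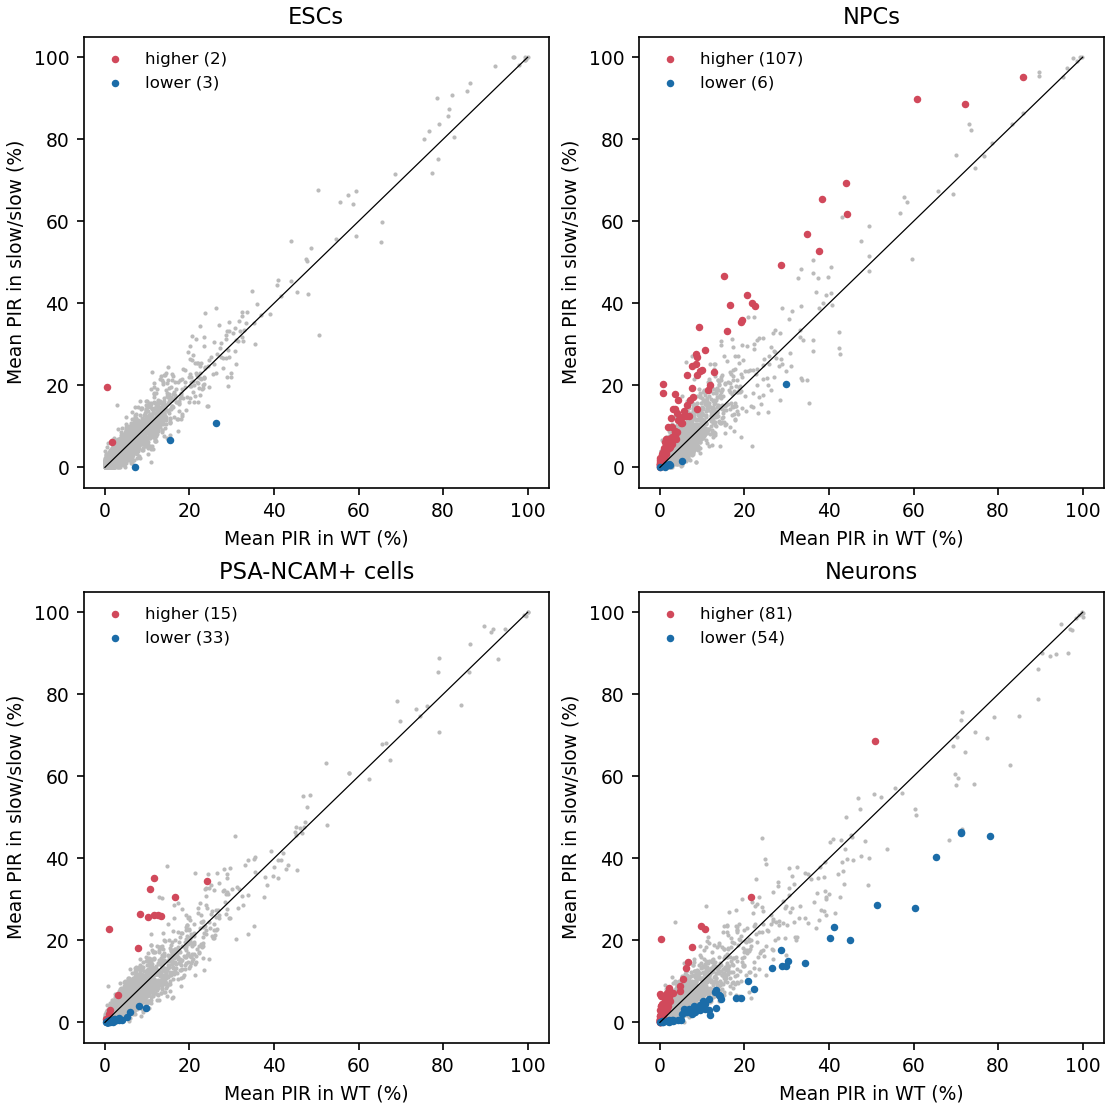
Mean percent intron retention (PIR, %) of each of 8855 very short introns in WT (x axis) and slow/slow (y axis) cells at the 4 stages, with the line of equality. Coloured points passed limma at a false discovery rate of 0.05, red higher and blue lower in slow/slow, and in NPCs 107 lie above the line and 6 below, in neurons 81 and 54.

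In the PSA-NCAM+ cells 48 very short introns passed limma, 15 higher and 33 lower in slow/slow, or 0.542% against 0.971% of all introns (0.112% higher and 0.859% lower). The study's rule called 12, all 12 higher, of 8464 (0.142% against 0.0548% of all introns, 0.0467% higher and 0.00805% lower), and 22 without slow/slow replicate 1. The 107-base intron of Zfp335, a zinc finger transcription factor required in neural progenitors, had 11.1%, 16.8% and 7.10% in WT and 38.8%, 41.8% and 25.2% in slow/slow (log2 odds difference 2.00 ± 0.32, SE, limma adjusted p = 0.0068). An exon of Pcif1 lies over it on the opposite strand, and Pcif1 expression was higher in slow/slow PSA-NCAM+ cells as well (log2 fold change 0.32, edgeR adjusted p = 0.0016). The 78-base intron of Yipf2 had 10.4%, 12.2% and 9.17% against 15.2%, 47.0% and 35.4% (2.08 ± 0.36, limma adjusted p = 0.014), and the 81-base intron of Kank3 had 9.87%, 8.61% and 12.2% against 26.4%, 20.5% and 30.3% (1.55 ± 0.33, limma adjusted p = 0.035). These 3 introns did not overlap between genotypes. Their hosts were lower in slow/slow PSA-NCAM+ cells (log2 fold changes −0.50, −0.60 and −0.73, edgeR adjusted p = 0.00055, 0.0097 and 1.5e-05).

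The largest lower values in PSA-NCAM+ cells were in introns of low retention. The 85-base intron of Pcif1, the cap-adjacent adenosine methyltransferase, had 9.78% ± 3.53 in WT and 3.57% ± 1.39 in slow/slow (SD, n = 3, limma adjusted p = 0.044). An exon of Gm28535 lies over the intron of Pask on the opposite strand. Group means of the introns of Pask, Ddx51 and Lphn1 were 4.07%, 5.87% and 3.30% in WT and 0.573%, 2.55% and 0.673% in slow/slow (limma adjusted p = 0.026, 0.044 and 0.026). The counts depended on each library. Without replicate 1 of both groups 124 introns passed, 32 higher and 92 lower, and leaving out 1 library gave 4, 145 and 189 calls without WT replicate 1, 2 and 3 and 1289, 1 and 4 without slow/slow replicate 1, 2 and 3. Samples with the same replicate number deviated together at this stage, and a block for the number within it gave 280 calls, 86 higher and 194 lower. Without replicate 1 of both groups Zfp335, Yipf2 and Pask kept their calls (limma adjusted p = 0.028, 0.00023 and 0.038), and Kank3, Pcif1, Ddx51 and Lphn1 did not (0.066, 0.073, 0.051 and 0.071). With 1 library left out, Zfp335 lost its call in 2 of the 6 refits (limma adjusted p up to 0.0866), Yipf2 and Pask in 3 each (up to 0.153 and 0.224) and Kank3, Pcif1, Ddx51 and Lphn1 in 3 each (up to 0.185, 0.302, 0.317 and 0.234). With the block within this stage all 7 were called (limma adjusted p = 4.4e-05 for Zfp335 to 0.026 for Ddx51), and with the block over all stages Ddx51 was not (0.055). A fit of only the PSA-NCAM+ groups called 0 very short introns, and over all alternatives the largest limma adjusted p was 0.634 for each of the 7.

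In neurons retention was higher in 81 and lower in 54 very short introns of slow/slow cells, in 104 host genes. The 135 are 1.52% of the very short introns, against 1.18% of all introns. For higher values the shares were alike, 0.915% and 0.911%, and for lower values they were 0.61% and 0.269%. Of the 135 differences, 28 were at most 1 percentage point. When the constant that is added to the reads was scaled to depth, 103 passed, 53 higher and 50 lower (1.16% against 0.83% of all introns). Over all introns 409 were then higher and 169 lower. Markers moved with genotype here. Of the neuron genes, Tubb3 was higher in slow/slow and Syn1, Snap25 and Rbfox3 were lower, as given above. Of other cells, 4 oligodendrocyte lineage genes summed to 60.8 to 80.3 CPM in WT and 13.6 to 15.1 CPM in slow/slow neurons. The 3 mesenchymal genes summed to 29.1 to 37.6 CPM and 131 to 149 CPM. The part of these markers in the retention differences was not tested. Differences of more than 10 points were mostly lower, with 5 higher and 19 lower, against 56 higher and 56 lower (0.0805% each) over all introns. The study's rule likewise called 6 higher and 28 lower of 8510 (0.4% against 0.162% of all introns, 0.0794% higher and 0.0826% lower).

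The 132-base intron of Exosc9, a subunit of the RNA exosome, had 46.3%, 53.6% and 52.8% in WT and 67.9%, 68.9% and 69.1% in slow/slow neurons (log2 odds difference 1.07 ± 0.17, SE, limma adjusted p = 0.0022). An exon of Ccna2 lies over it on the opposite strand, and the level of Ccna2 was 75.7 CPM in WT against 125 CPM in slow/slow neurons. The 90-base intron of Stub1, a ubiquitin ligase that works with chaperones, had 11.3%, 10.1% and 10.7% against 22.4%, 21.0% and 24.8% (1.29 ± 0.24, limma adjusted p = 0.0093), with an overlapping exon of Jmjd8 at 20.4 and 37.2 CPM. For both introns the overlapping gene was thus higher in slow/slow neurons as well (edgeR adjusted p = 0.00051 and 1.2e-05). The 86-base intron of 2510002D24Rik had 9.83%, 9.20% and 9.85% against 23.9%, 21.0% and 25.9% (1.46 ± 0.32, limma adjusted p = 0.024).

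Lower retention in slow/slow neurons was found in the 139-base intron of Abhd1, an α/β-hydrolase, with 79.9%, 77.1% and 77.2% in WT and 52.9%, 51.6% and 32.1% in slow/slow (log2 odds difference −1.93 ± 0.27, SE, limma adjusted p = 0.00088). An exon of Preb lies over it on the opposite strand. The intron of Stk11ip, in the 5′ untranslated region, had 66.7%, 72.3% and 74.8% against 50.5%, 40.3% and 47.5% (−1.56 ± 0.32, limma adjusted p = 0.017). The 98-base intron of 0610011F06Rik had 35.3%, 36.5% and 31.2% against 19.4%, 13.8% and 10.1% (−1.58 ± 0.32, limma adjusted p = 0.015). In NPCs the same intron was higher in slow/slow, with means of 8.52% and 27.6% (1.98, limma adjusted p = 0.011). The intron of Gcdh followed the same order, with 19.1% in WT and 35.3% in slow/slow NPCs (limma adjusted p = 0.03) and 40.2% and 20.7% in neurons (limma adjusted p = 0.019). The NPC call of 0610011F06Rik and the calls of Gcdh were not followed by name in the refits. The 111-base intron of Sfi1 had 58.8%, 58.4% and 63.7% against 27.3%, 26.9% and 29.4% (−1.98 ± 0.24, limma adjusted p = 0.00019). It is uncertain, because near-identical copies of the gene may share reads, which was not tested. Counts without 1 library were 58, 59 and 33 for WT replicate 1, 2 and 3 and 51, 82 and 73 for slow/slow replicate 1, 2 and 3, and 27 introns were called in all 6. Exosc9, Abhd1 and Sfi1 kept their calls, Stub1 lost its call without WT replicate 3 (adjusted p = 0.0601), Stk11ip in 3 refits and 2510002D24Rik and 0610011F06Rik in 5 (limma adjusted p over all alternatives up to 0.157, 0.132 and 0.0672).

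Expression of the host genes was compared with edgeR on the gene counts. Of 3158 hosts tested, 1314 (41.6%) differed between genotypes at the ESC stage, 1848 (58.5%) at the NPC stage, 1746 (55.3%) among PSA-NCAM+ cells and 1636 (51.8%) among neurons, and the shares over all genes were 40.4%, 56.7%, 56.7% and 51.9%. Read by direction, the shares of all genes higher in slow/slow were 18.5%, 29.3%, 28.6% and 23.4% and those lower 21.9%, 27.4%, 28.1% and 28.4%. At least 2-fold differences were found for 92, 213, 175 and 144 hosts (2.91%, 6.74%, 5.54% and 4.56%), against 13.7%, 21.5%, 22.8% and 20.2% of all genes. Hosts had to hold an intron with coverage in all 24 samples, which leaves out genes that are low at any stage or in either genotype. The shares of hosts and of all genes are therefore not taken from like sets. The hosts of introns with higher retention in slow/slow NPCs were more often lower than higher in expression, with 49 lower and 10 higher of 96 tested (median log2 fold change −0.31, against 0.06 over all hosts). Over all 3158 hosts tested, 806 were lower and 1042 higher in NPCs. In neurons 960 of all hosts were lower and 676 higher, and in PSA-NCAM+ cells 773 were lower and 973 higher. In neurons 36 hosts were lower and 3 higher of the 59 tested whose introns were higher in retention (median −0.47, against −0.08 over all hosts), and 17 were higher and 7 lower of the 43 whose introns were lower. The PSA-NCAM+ cells showed the same arrangement, with 7 of 10 hosts lower and 0 higher where retention was higher, and 26 of 31 higher and 0 lower where it was lower. Intron and host were measured in the same libraries, so these are not independent measurements.

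Differences between stages were examined within each genotype. Against WT ESCs, the retention of 1800 very short introns differed in WT neurons, with 448 higher and 1352 lower, or 20.3% against 26.2% of all introns. The higher calls made up 5.06% against 2.61% of all introns and the lower calls 15.3% against 23.6%. Of the 1800 differences, 784 were at most 1 percentage point. Of those over 10 points, 117 were higher and 35 lower in neurons, whereas over all introns 347 (0.499%) were higher and 515 (0.74%) lower. In slow/slow cells 591 differed, 195 higher and 396 lower (6.67% against 8.48% of all introns, 1.59% higher and 6.89% lower), with 44 higher and 24 lower over 10 points against 213 (0.306%) and 367 (0.527%) over all introns. The numbers rest in part on introns with very few retention reads. When the constant added to the reads was scaled to depth, 1094 (12.4% against 15% of all introns) and 294 (3.32% against 3.68%) passed. The WT count was 1163 without ESC WT replicate 1 and 891 without neuron WT replicate 3, and the slow/slow count was 338, 365 and 340 without ESC slow/slow replicate 1, 2 and 3 and 330 and 245 without neuron slow/slow replicate 1 and 2.

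The 93-base intron of Pkmyt1, the kinase that holds CDK1 inactive before mitosis, had 4.04%, 3.17% and 2.26% in WT ESCs and 77.7%, 68.8% and 65.0% in WT neurons (log2 odds difference 6.09 ± 0.32, SE, limma adjusted p = 7.4e-11). In slow/slow cells the means were 2.70% and 59.6% (5.57, limma adjusted p = 1e-09). Its host was at 62.4 CPM in WT ESCs and 10.1 CPM in WT neurons. The 105-base intron of Fanca, a component of the Fanconi anaemia core complex, had means of 12.3% in WT ESCs and 74.4% in WT neurons and of 13.1% and 58.2% in slow/slow. Fanca itself went from 86.7 to 11.9 CPM in WT, and Zfp276, with an exon over the intron on the opposite strand, from 16.7 to 24.4 CPM. The 124-base intron of Ddb2, a sensor of ultraviolet DNA damage, had 21.6% and 71.3% in WT and 31.4% and 73.8% in slow/slow, with an exon of Acp2 over it that went from 26.6 to 90.7 CPM in WT. Abhd1 had 22.0% and 78.1% in WT, and the 99-base intron of Ddx49 had 10.7% and 54.7% in slow/slow. All of these passed limma, and no neuron sample overlapped with an ESC sample of its genotype.

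Lower retention in neurons was found in the 105-base intron of Luc7l3, a U1 snRNP-associated splicing factor, with means of 82.6% ± 1.96 in WT ESCs and 60.2% ± 2.72 in WT neurons (SD, n = 3, log2 odds difference −1.65 ± 0.23, limma adjusted p = 3.8e-05). In slow/slow cells the means were 80.6% ± 0.578 and 52.1% ± 1.22. The 138-base intron of 1300018J18Rik had 85.7% and 47.4% in WT and 91.8% and 52.0% in slow/slow. The 82-base intron of Fam36a had 50.7% and 13.9% in WT, and the 90-base intron of 9430015G10Rik had 67.7% and 35.7% in slow/slow. The 91-base intron of Lrrc41 had 33.4% and 6.73% in WT and 35.1% and 9.91% in slow/slow, and Rad54l, with an exon over it on the opposite strand, went from 73.7 to 14.4 CPM in WT. An exon of another gene lay over 31 of 113 matched introns (27.4%) with a called difference over 10 points between WT ESCs and neurons, and over 71 of 1501 (4.73%) of all called.

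**Figure D5:**
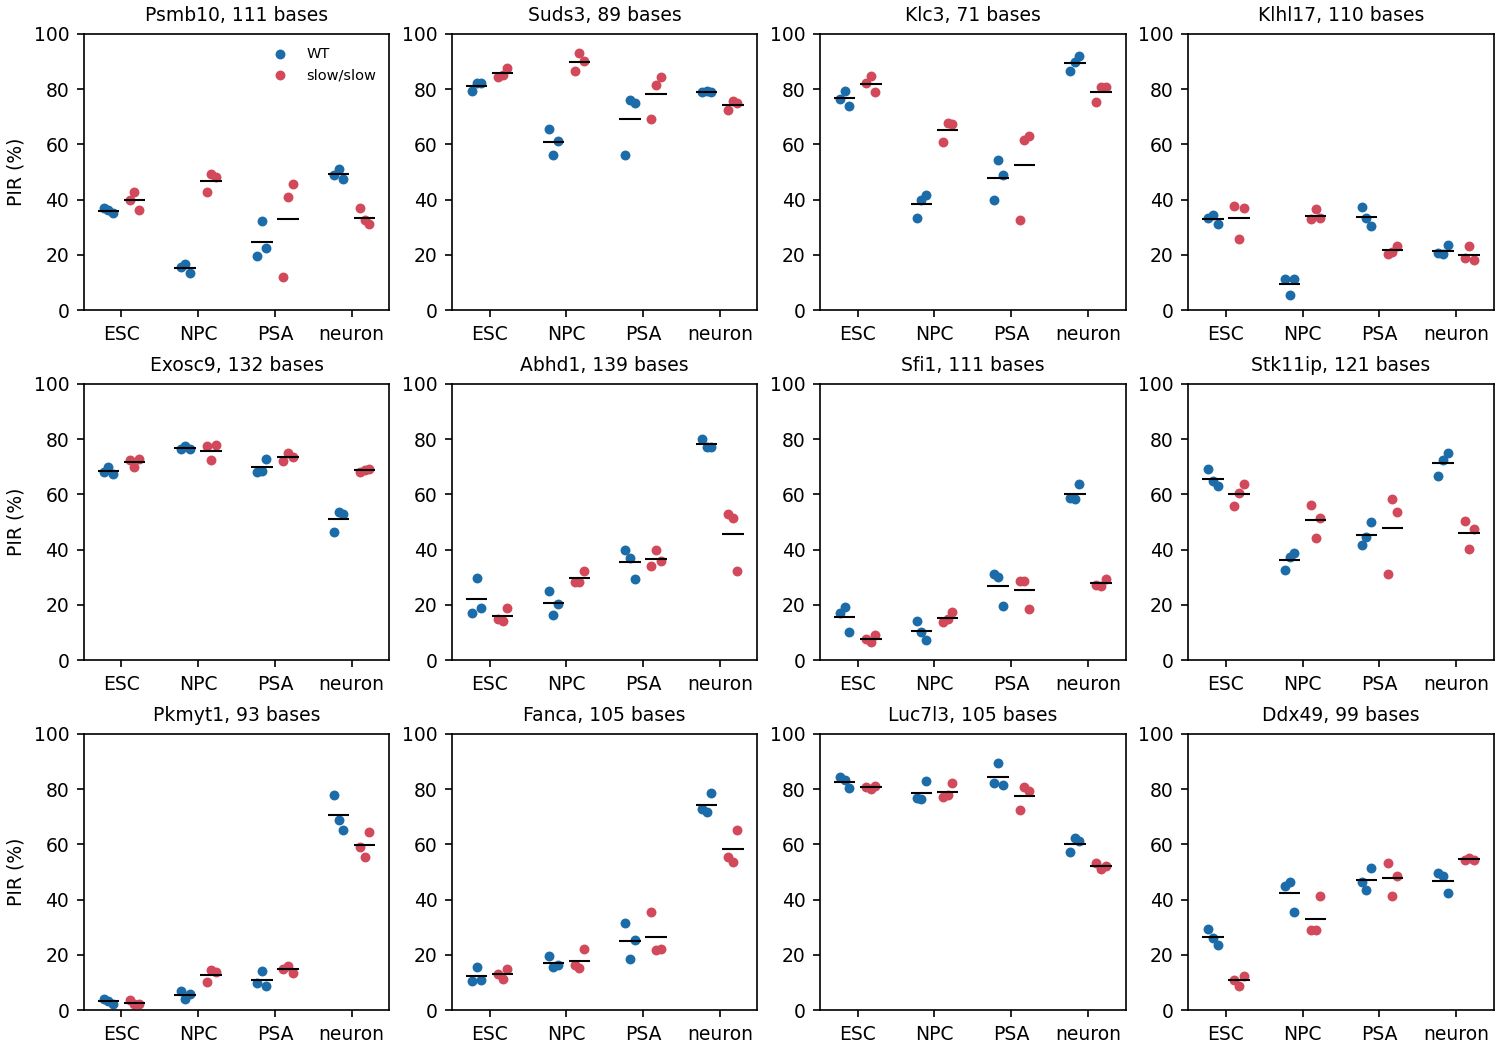
Percent intron retention (PIR, %) of 12 very short introns in each of 24 samples (points) by stage, with the mean of 3 samples (line), blue for WT and red for slow/slow. Psmb10, Suds3, Klc3 and Klhl17 are lower in WT than in slow/slow NPCs, Abhd1, Sfi1 and Stk11ip are lower in slow/slow than in WT neurons, and Pkmyt1 and Fanca are highest in neurons.

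Between ESCs and NPCs fewer introns differed, 133 in WT (19 higher and 114 lower in NPCs, 1.5% against 1.27% of all introns, 0.274% higher and 1% lower) and 28 in slow/slow (8 higher and 20 lower, 0.316% against 0.398%, 0.069% higher and 0.329% lower). Between ESCs and PSA-NCAM+ cells 503 differed in WT, 377 higher and 126 lower (5.68% against 4.12% of all introns, 1.76% higher and 2.36% lower), and 649 in slow/slow, 294 higher and 355 lower (7.33% against 9.09%, 1.22% higher and 7.87% lower). Without replicate 1 of both PSA-NCAM+ groups these 2 counts were 306 and 1483, and other libraries moved them as well. The WT count was 109 and 887 without PSA-NCAM+ WT replicate 1 and 3 and 150, 231 and 192 without ESC WT replicate 1, 2 and 3, and the slow/slow count was 1100 and 245 without PSA-NCAM+ slow/slow replicate 1 and 2 and 320, 326 and 309 without ESC slow/slow replicate 1, 2 and 3. The 3 comparisons of a genotype share its ESC samples. The NPC count in WT was 51 and 58 without ESC WT replicate 1 and 2 and 72, 41 and 40 without NPC WT replicate 1, 2 and 3. The slow/slow one was 14 without ESC replicate 1 or 3 and 7, 18 and 14 without NPC replicate 1, 2 and 3. Of the differences between ESCs and NPCs 23 of the 29 over 10 points in WT were lower in NPCs, and in slow/slow 6 of 11 were. Over all introns 57 (0.0819%) were higher and 91 (0.131%) lower in WT, and 14 (0.0201%) higher and 42 (0.0603%) lower in slow/slow.

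Whether the genotype difference itself changed between ESCs and neurons was tested as an interaction. It passed for 10 very short introns (0.113% against 0.046% of all introns), 6 with a more positive difference in neurons and 4 with a more negative one (0.0273% and 0.0187% of all introns). The 117-base intron of Araf, a RAF-family kinase, had 7.22% in WT and 9.27% in slow/slow ESCs but 22.2% and 8.09% in neurons (interaction −2.11 ± 0.32 on the log2 odds scale, SE, limma adjusted p = 0.023). Leaving out 1 library left 0 to 7 calls, with 7 without ESC WT replicate 3, 3 without neuron WT replicate 1, 1 without neuron slow/slow replicate 2 and 0 in the other 9 refits, in which 655 to 797 introns had an unadjusted limma p under 0.05.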

How the data were processed

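Gene counts and the splicing table were used as deposited. Per the labels and the study's methods, the authors sequenced stranded poly(A)+ libraries as paired reads and counted raw reads per gene, and the authors made the splicing values with vast-tools on mm9. The deposited percent values are PIR, and the deposited quality strings hold the corrected retention and spliced read counts. The authors' mean RPKM values, fold changes and false discovery rates were not used, nor was the table of alternative splicing calls. The submitters' processing notes name bcl2fastq 2.17.1.14 and edgeR. Gene counts summed to 32974432 to 104466886 per sample.

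Members were all introns of at most 150 bases with a coverage class of SOK, OK or LOW in the 24 samples. Members and gene lists were chosen with earlier results of these data known. Log2((retention + 0.5)/(spliced + 0.5)) was fitted for all 69602 covered introns with limma 3.58.1 in R 4.3.3, with read-based weights, 8 groups and Benjamini-Hochberg adjustment at 0.05. The study's rule was applied per stage after its filter of at least 15 reads and a balance p of at least 0.05, and its probability threshold, printed in another form, was read as 0.95. Host genes were tested with edgeR 4.0.16 (quasi-likelihood, TMM) on counts, with DESeq2 1.42.0 as an alternative. The tests across introns and genes were tested on simulated data.

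Introns were named by size of difference in PIR, up to 4 in each direction per genotype comparison and per comparison of neurons with ESCs and up to 2 for the interaction, among those past the test. For all but the interaction, introns were taken only where the groups did not overlap, 1 per gene. The 5 highest and 5 shortest, the highest of each host list, and the introns of Polr2a, Clk1, Clk4, Srsf5, Srsf7 and Ogt were added. Srsf5 and Srsf7 held none. Pairing was checked from deviations from the group mean over 3917 introns with a mean PIR above 1%. Same-numbered PSA-NCAM+ samples correlated at 0.35, 0.12 and 0.25, and the mean correlation was 0.0037 in ESCs, 0.0095 in NPCs and −0.034 in neurons. The samples came from 3 differentiation experiments, but the labels do not tie them to the replicate numbers. Intervals and limits from reads cover counting error only. Coordinates on GRCm38 are from the GENCODE M21 annotation and were matched by gene symbol, intron length and the lengths of both neighbouring exons, not converted. Alternatives included each library left out, the replicate block, other weights, offsets, filters and length limits.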

Additional observations from a re-analysis of the deposited data

Results flagged for a closer look

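The difference between genotypes was not the same in ESCs and neurons for 10 very short introns, by a test of the difference itself (limma interaction, Benjamini-Hochberg adjusted p under 0.05 over all introns). In Araf the 117-base intron had a genotype difference of 0.43 on the log2 odds scale in ESCs and −1.69 in neurons, which differ by −2.11 ± 0.32 (SE, adjusted p = 0.023). The 92-base intron of Chchd1, a mitochondrial ribosomal protein of the CHCH family, had 4.35% (WT) and 5.85% (slow/slow) at the ESC stage and 6.18% and 3.01% in neurons, an interaction of −1.56 ± 0.26 (limma adjusted p = 0.028). The 99-base intron of Ddx49 had 26.4% and 10.7% in ESCs and 46.8% and 54.7% in neurons, an interaction of 2.04 ± 0.35 (limma adjusted p = 0.031), and its 140-base intron had 15.4% and 6.74% in ESCs and 35.0% and 36.1% in neurons, an interaction of 1.37 ± 0.25 (limma adjusted p = 0.043). Both Ddx49 introns lie under exons of Homer3 on the opposite strand, whose expression differed the same way, with log2 fold changes of −0.83 in ESCs and 0.68 in neurons (edgeR adjusted p = 5.9e-07 and 3.3e-06). Its part in the retention values was not tested. With 1 of the 12 libraries left out in turn, the calls of Chchd1 and the 140-base Ddx49 intron were lost in all 12 refits, that of the 99-base Ddx49 intron in 11 and that of Araf in 10, and none of the 10 introns was called in every refit.

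The other 6 of the 10 introns had means of at most 7% in these 4 groups and are named here after their values were seen. The 90-base intron of Ppp1r10, a nuclear regulator of protein phosphatase 1, had 0.127% in WT and 6.99% in slow/slow neurons against 0.46% and 0.297% in ESCs, and the 92-base intron of Txnip, the thioredoxin-interacting protein, had 0.57% and 4.58% in neurons against 2.55% and 0.683% in ESCs. The 128-base intron of Eif3c, a translation initiation factor subunit, had 5.97% and 2.62% in neurons against 4.71% and 5.32% in ESCs, and the 133-base intron of Ctgf, a secreted matricellular protein, had 0.2% and 2.97% against 1.33% and 0.503%. The 82-base intron of the chaperone gene Hsp90ab1 had at most 0.08%, and the 146-base intron of Ucp2, a mitochondrial carrier, at most 1.09%. Groups of 3 samples are too small for a search for single outlying samples.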

How the results depend on the processing

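Results are counts of very short introns past the test unless stated. Fewer samples and stricter limits lower a count by construction, and for the other changes the cause was not tested. A difference of over 5 points left 57, 12 and 50 genotype calls in NPCs, PSA-NCAM+ cells and neurons, 53, 155 and 323 stage calls in WT and 14, 160 and 141 in slow/slow (NPCs, PSA-NCAM+ cells and neurons against ESCs) and 5 for the interaction. With a length of at most 100 bases there were 2, 66, 27 and 64 genotype calls in ESCs, NPCs, PSA-NCAM+ cells and neurons, 78, 284 and 977 stage calls in WT and 14, 356 and 308 in slow/slow, 5 for the interaction, and by the study's rule 27 in NPCs and 17 in neurons. Without weights PSA-NCAM+ cells had 8 genotype calls, WT PSA-NCAM+ cells against ESCs 198, slow/slow NPCs against ESCs 45 and the interaction 6. With 1 added to the reads in place of 0.5 the stage calls were 203 for WT NPCs and 61, 1040 and 988 for slow/slow NPCs, PSA-NCAM+ cells and neurons. With the constant scaled to depth, chosen after seeing the data, they were 334 and 1094 for WT PSA-NCAM+ cells and neurons and 13, 283 and 294 for slow/slow. The genotype calls were then 6, 108, 34 and 103 in ESCs, NPCs, PSA-NCAM+ cells and neurons.

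Fitting only the groups compared gave 2, 193 and 584 genotype calls in ESCs, NPCs and neurons, and in PSA-NCAM+ cells limma then called 0 (446 at an unadjusted p under 0.05, with 12 by the study's rule). For the stages it gave 1 for WT PSA-NCAM+ cells, 6 for slow/slow PSA-NCAM+ cells and 1263 for slow/slow neurons, and 95 for the interaction. With the study's filter in all samples the genotype calls were 1 in ESCs and 71 in NPCs, WT NPCs against ESCs had 76 and the interaction 0 by limma (765 at an unadjusted p under 0.05). The median PIR was then 0.573% in slow/slow ESCs, 0.557% in WT NPCs and 0.617% in slow/slow NPCs, and the rank correlation of length and PIR was −0.137. By the study's rule, over 15 points left 25, 5 and 17 and a posterior over 0.99 left 29, 3 and 16 in NPCs, PSA-NCAM+ cells and neurons, and no balance filter gave 6 in ESCs. At least 2-fold differences in host expression were 92, 213, 175 and 144 in ESCs, NPCs, PSA-NCAM+ cells and neurons, and fits to single stages gave 544 hosts in PSA-NCAM+ cells and 2459 in neurons. Without replicate 1 of both PSA-NCAM+ groups, chosen after seeing the data, the counts were 124 for genotype, 306 and 1483 for the stage in WT and slow/slow and 24 by the rule.

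Leaving out 1 library gave 1 to 4, 31 to 62, 1 to 1289 and 33 to 82 genotype calls in ESCs, NPCs, PSA-NCAM+ cells and neurons. The stage calls were 40 to 108, 109 to 887 and 891 to 1590 in WT and 7 to 19, 245 to 1100 and 245 to 524 in slow/slow, and the interaction had 0 to 7. The rule gave 4 to 8, 46 to 52, 9 to 22 and 34 to 46, and hosts numbered 1122 to 1201, 1644 to 1714, 1477 to 2217 and 1440 to 1481. The replicate block over all stages gave 5, 147, 41 and 170 genotype calls, and within PSA-NCAM+ cells alone, where same-numbered samples deviated together, it gave 280. Beyond the PSA-NCAM+ cells the samples shared only a number. Of 47 named differences, 23 kept their call in every refit that could be made. Of 684 refits, 533 kept the call and 0 turned the direction. With the study's filter in all 24 samples, 28 named differences kept their call and 5 lost it. The named introns of Klhl17, Pkmyt1, Luc7l3, Sfi1, 2510002D24Rik and Chchd1 did not pass that filter and could not be refitted under it. The same held for the 117-base intron of Polr2a and the 99-base intron of Ddx49. The read depth limits introns near 0, where 25.6% of single values rest on no retention read.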

Other observations

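A few genes held many very short introns. The 3′ end processing factor gene Cpsf1 held 34, the most of all hosts, with a median PIR of 1.67% and a highest of 8.54%. The filamin gene Flna and the laminin gene Lama5 held 27 each, with medians of 0.595% and 1.12%, and 1 intron of Lama5 reached 19.3%. Tln1, which encodes talin, held 27 with a median of 0.231% and a highest of 0.911%. Edc4, a scaffold of the decapping complex, held 20 with a median of 1.89% and a highest of 65.3%. These genes were picked by their number of very short introns after the values were seen. Over hosts with at least 5 such introns the median span from the lowest to the highest was 4.27 percentage points.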
